A study of Mus musculus with 3 samples.

Results

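B cells of the small intestinal muscularis made up 311 of the 4102 CD45+ cells profiled in this series, a time course of muscularis inflammation. The cells came from wild-type C57BL/6J mice aged 12 weeks and were sorted as CD45+ leukocytes from the muscularis externa, the muscle wall of the gut, peeled away from the mucosa. The 3 groups were naïve mice, mice 24 h after intestinal manipulation (IM) and mice 72 h after IM, a surgical handling of the bowel that inflames the muscle layer. Each group was 1 droplet library (10x Genomics 3' chemistry) made from several pooled mice, so the time point and the library cannot be told apart and no comparison between time points has a replicate or a test. Levels are given as summed CPM, the unique molecular identifiers (UMIs) of a gene over all B cells of a library relative to all UMIs of those cells. Fewer cells of one kind among the B cells and less RNA per cell cannot be told apart in such sums. Intervals are exact 95% intervals (Poisson for levels and their ratios, Clopper-Pearson for shares) and cover counting error only.

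B cells recognise antigen through surface immunoglobulin, which signals through the CD79A and CD79B chains, and they present peptides to T cells on MHC class II. Naïve follicular B cells recirculate through lymphoid tissue and carry IgM and IgD. After antigen encounter they may enter germinal centres, where their immunoglobulin genes are diversified and switched, or become plasma cells. Plasma cells of the gut mostly secrete dimeric IgA held together by the joining chain, encoded by Jchain.

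The B cells were chosen by their own counts. A cell was selected on at least 2 UMIs of Cd79a, Cd79b and Ms4a1 together, no UMI of Cd3d, Cd3e or Cd3g, under 0.3% of its UMIs from Lyz2, and at most 1 UMI of Top2a, Pclaf and Mki67 together. The levels of these genes in the members are therefore a description. The first criterion was met by 434 cells, of which 401 had no Cd3 UMI, 339 of these were under the Lyz2 limit and 311 were also under the limit on dividing cell genes. Of the 65 cells at 24 h that passed the first pair of criteria, 38 were under the Lyz2 limit, compared with 251 of 261 naïve cells and 50 of 75 from 72 h. At the lower edge, 11 members had exactly 2 UMIs of the B cell genes, with an Ebf1 UMI in 27.3% of them, and 39 cells just outside had 1 UMI, with an Ebf1 UMI in 5.13%. Among members with more than 2 UMIs, 91.3% had an Ebf1 UMI. The highest Lyz2 share inside the limit was 0.290% and the lowest outside was 0.306%.

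The naïve members held 497451 UMIs, those of 24 h 90193 and those of 72 h 114829. Their median depth was 1746, 1677 and 2124.5 UMIs per cell. No cell barcode of a B cell was shared between libraries, and each pair of libraries shared 1 barcode among all cells. T cells chosen by the mirrored rule (at least 2 Cd3 UMIs, no UMI of the B cell genes, the same other limits) served as the comparison lymphocyte, with 139, 37 and 78 cells.

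B cells were the larger lymphocyte group of the naïve muscularis and a small share of the CD45+ cells after IM. They numbered 231 of 652 naïve cells (35.4%, interval 31.8 to 39.2), 36 of 2211 at 24 h (1.63%, 1.14 to 2.25) and 44 of 1239 at 72 h (3.55%, 2.59 to 4.74). T cells made up 21.3%, 1.67% and 6.30% of the same libraries. Counted among B and T cells alone, B cells were 62.4% (57.3 to 67.4) of the naïve cells, 49.3% (37.4 to 61.3) of those of 24 h and 36.1% (27.6 to 45.3) of those of 72 h. These intervals do not cover differences between mice or libraries, and this share was not computed under other limits of the rule. Cells with a high Lyz2 share took 586 of the 72 h cells and 1454 of the 24 h cells, against 96 of the naïve cells. Shares are relative to the CD45+ cells recovered, and the number of B cells per length of muscularis was not measured.

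**Figure D1:**
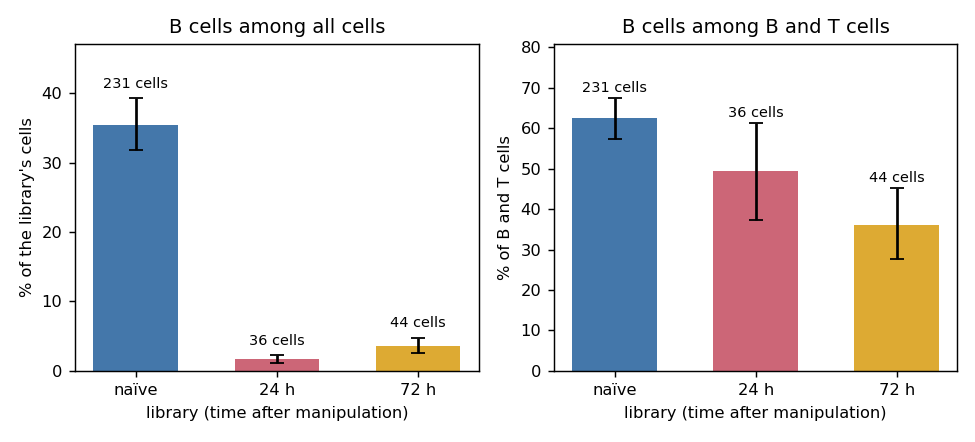
Bars show B cells as a percent of all cells of each library (left) and of B and T cells together (right), with exact binomial intervals that cover counting error only. The naïve bar stands at 35.4% and the 2 later bars at 1.63% and 3.55% on the left, while on the right the bars step from 62.4% to 36.1%.

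The B cell label was checked against genes that the rule did not use, and their summed levels met it. Such sums do not show that every member met it. At 24 h a member of 6495 UMIs had 0.0154% of them from immunoglobulin genes and another, of 8819 UMIs, 0.125%. The 3 members at 24 h with only 2 UMIs of the B cell genes held 11.7% of the members' UMIs there. No member with exactly 2 such UMIs had an Ighd UMI. Ebf1, a transcription factor that sets B lineage identity, stood at 1305 CPM (1206 to 1409) in naïve B cells, 954 CPM (763 to 1178) at 24 h and 1271 CPM (1074 to 1495) at 72 h and had a UMI in 208 of 231, 30 of 36 and 39 of 44 B cells. In T cells Ebf1 stood at 2.90, 9.18 and 0 CPM. Pax5, the factor that maintains B cell identity, was at 129, 55.4 and 139 CPM, and at 0 in T cells of all 3 libraries. The inhibitory receptor gene Cd22 was at 193, 122 and 218 CPM, again at 0 in T cells. The 20 genes that stood furthest above T cells, ranked by the lower bound of the ratio averaged over the libraries, included Ly6d, Mef2c, Vpreb3, Tnfrsf13c, Bank1 and H2-DMb2. Ly6d, a surface protein gene of the B lineage, was at 1634, 1641 and 1393 CPM in B cells and at 0, 0 and 4.36 CPM in T cells. Tnfrsf13c, which encodes the receptor for the survival factor BAFF, was at 434, 510 and 374 CPM.

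Genes of the follicular B cell list were measured at close to the same level in the 3 libraries. The summed level of its 10 genes was 2559 CPM in naïve B cells, 2217 CPM at 24 h and 2517 CPM at 72 h, with ratios to naïve of 0.87 (0.74 to 1.01) and 0.98 (0.86 to 1.12). T cells held 87.0, 36.7 and 113 CPM of the same list. At least 2 UMIs of the list were present in 207 of 231 naïve B cells (89.6%, 84.9 to 93.2), 33 of 36 at 24 h (91.7%, 77.5 to 98.2) and 40 of 44 at 72 h (90.9%, 78.3 to 97.5). With every cell thinned to 1000 UMIs, which left out 14 shallower B cells (11, 2 and 1), the shares were 72.3%, 82.4% and 72.1%. Fcer2a, the low-affinity IgE receptor CD23 of follicular B cells, was at 191, 166 and 148 CPM, and Cr2, the complement receptor CD21, at 175, 166 and 113 CPM. Genes of the B-1 list were sparse: Cd5 had no UMI in any of the 311 B cells, a count that allows up to 6.03 CPM in the naïve sum, and the 9 genes of the list together reached 68.3, 133 and 165 CPM, against 623, 918 and 793 CPM in T cells. The 6 genes of the marginal zone list summed to 641, 621 and 496 CPM in B cells. In T cells they summed to 258, 119 and 174 CPM. At least 2 UMIs of this list were present in 55 of 231, 9 of 36 and 10 of 44 B cells. For T cells the counts were 21 of 139, 4 of 37 and 8 of 78. Its gene Mzb1 was at 545, 510 and 357 CPM in B cells and at 2.90, 0 and 0 CPM in T cells. Other genes of the list were sparse: Cd1d1 had 3, 1 and 3 UMIs and Fcrl5 had 7, 2 and 1 UMIs.

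**Figure D2:**
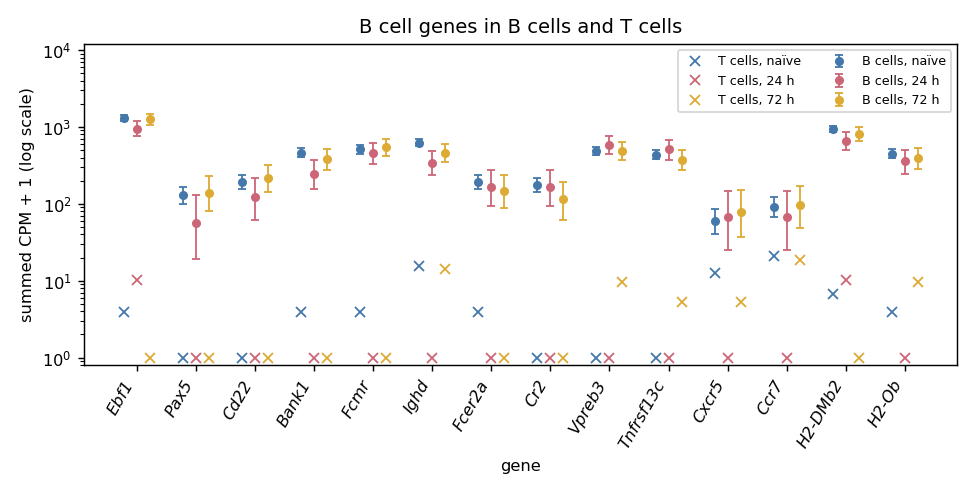
Points give summed CPM plus 1 on a log axis in the B cells of each library with exact Poisson intervals, and crosses the same in T cells, for 14 genes of B cell identity, follicular B cells and antigen presentation. The B cell points of Ebf1 lie between 954 and 1305 CPM and those of Pax5 between 55.4 and 139 CPM, and the T cell crosses lie at or near 0 for Pax5, Cd22 and Cr2.

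Clustering the 311 B cells on genes other than immunoglobulin and rule genes gave 6 clusters. Clusters 1 and 2, with 141 and 84 cells, were led by sparse genes (Tnrc6c and Egr3 in the first, Cd2ap and Tox4 in the second, each in at most 20.2% of the cells of its cluster), and Ighd had a UMI in 71.6% and 73.8% of their cells. Cluster 5 held 17 germinal centre-like cells. Cluster 6 held 7 plasma cell-like cells. Cluster 3, with 42 cells, was led by genes of Mφs (Spp1, Pf4, S100a6, Ccl3, Cd63) and is left without a cell type name. Each of these 5 genes had a UMI in at most 38.1% of its cells, while Ebf1 had one in 73.8%. Cluster 4, with 20 cells, was led by Shmt1, Ifrd2, Timm8a1, Mreg and Apex1 and was also left unnamed. A cluster's leading genes are those that formed it and are no finding. Levels outside clusters 3 and 6 rest on 217 naïve cells, 16 at 24 h and 29 at 72 h. These held 422096, 29681 and 75084 UMIs, so that 1 UMI at 24 h is 33.7 CPM.

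**Figure D3:**
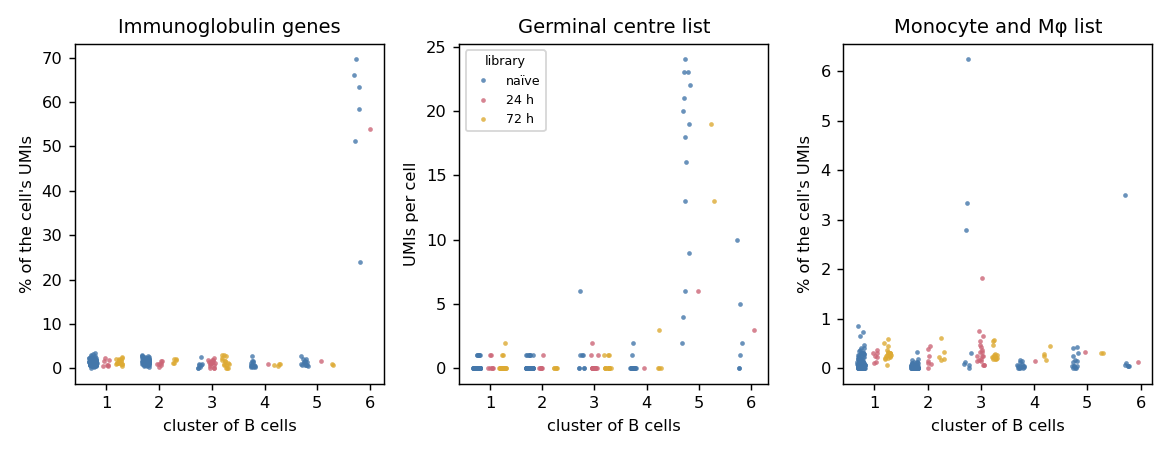
Each point is 1 B cell, placed by its cluster and coloured by library, with the percent of its UMIs from immunoglobulin genes (left), its UMIs of the germinal centre list (middle) and the percent of its UMIs from the monocyte and Mφ list (right). The 7 cells of cluster 6 lie between 24.0% and 69.6% immunoglobulin, the cells of cluster 5 hold most UMIs of the germinal centre list, and the 4 highest Mφ list shares among naïve cells lie in clusters 3 and 6.

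The germinal centre-like cells were found in all 3 libraries, with 14 naïve cells (6.06% of B cells, 3.35 to 9.96), 1 cell at 24 h (2.78%, 0.0703 to 14.5) and 2 cells at 72 h (4.55%, 0.555 to 15.5). All 12 genes of the germinal centre list were at least 2-fold higher there than in the other members, as clustering on these genes fixes. Rgs13, a regulator of G protein signalling in germinal centre B cells, was detected in 82.4% of the 17 cells. Immunoglobulin genes did not enter the clustering. Ighd had no UMI in any of the 17 cells, Ighm a UMI in 11.8% of them and Ighg2b, an IgG heavy chain, a UMI in 76.5%, against 1.36% of the other members. Ighg2b UMIs numbered 111 in naïve B cells, 4 at 24 h and 0 at 72 h. Over the libraries 87 of these UMIs lay in cluster 5 and 27 in cluster 6, and the plasma cell-like cell at 24 h held all 4 of that library. The 72 h level of Ighg2b was at least 8.54-fold lower than the naïve one, with 3 counts taken as the floor of the 72 h sum. Clusters 5 and 6 held 14 and 6 naïve cells against 2 and 0 at 72 h, so this level cannot be told apart from the number of such cells.

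Without clusters, at least 2 UMIs of the germinal centre list were present in 19 of 231 naïve B cells (8.23%, 5.02 to 12.5), 3 of 36 at 24 h (8.33%, 1.75 to 22.5) and 4 of 44 at 72 h (9.09%, 2.53 to 21.7). These counts include cells outside cluster 5. Among them were naïve plasma cell-like cells with 5, 10 and 2 list UMIs. At 24 h they were a plasma cell-like cell with 3 and a cluster 3 cell with 2, and at 72 h cells of clusters 1 and 4 with 2 and 3. The intervals of these shares overlapped widely, while the share in T cells was 0%, 5.41% and 2.56%. T cells held 66.7, 73.5 and 78.4 CPM of the list and are not a blank for it. Thinned to 1000 UMIs, the shares in B cells were 4.55% (10 of 220), 0% (0 of 34, which allows a share of up to 8.82% with 3 counts as the floor, exact upper bound 10.3%) and 6.98% (3 of 43), and no T cell passed. Dividing B cells stood outside the members by rule and numbered 20 naïve cells, 2 at 24 h and 6 at 72 h. The summed level of the list was lower at 24 h, at 529 CPM in the naïve sum, 177 CPM at 24 h (ratio 0.34, 0.19 to 0.56) and 366 CPM at 72 h (0.69, 0.49 to 0.96). These ratios outside clusters 3 and 6 were 0.54 (0.25 to 1.05) and 0.93 (0.64 to 1.31), and both intervals included 1. Mef2b, a transcription factor of germinal centre B cells, had 50 UMIs in naïve B cells, 2 at 24 h and 3 at 72 h.

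Among the members, the plasma cell-like cells carried nearly all IgA transcripts. Cells outside the rule held 3355, 4984 and 1603 UMIs of the plasma cell list, with Jchain at 64.6 CPM there at 24 h. The rule asks for UMIs of Cd79a, Cd79b or Ms4a1, so any plasma cells without them are not counted here. The 7 cells of cluster 6 were also the 7 members with 20 or more Jchain UMIs. They comprised 6 of the 231 naïve B cells, 1 of 36 at 24 h and none of 44 at 72 h, where 0 of 44 allows a share of up to 6.82% with 3 counts as the floor (exact upper bound 8.04%). Their Jchain UMIs ran from 22 to 1470, and in 6 of the 7 cells Igha, the IgA heavy chain, ran from 374 to 2125 UMIs. The remaining cell held 433 UMIs of Ighm and 1 of Igha, with 276 of Jchain. One naïve cell was of the lambda type, with 864 Iglc1 and 77 Igkc UMIs, whereas the others held between 1977 and 6940 Igkc UMIs. Ighd had no UMI in any of the 7 and Ms4a1, which encodes CD20, had none either. Xbp1, the factor that expands the secretory machinery, had a UMI in all 7 cells, from 2 to 45, and Sdc1, which encodes the plasma cell marker CD138, had between 1 and 7.

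These few cells set the summed immunoglobulin levels of their libraries. They held 98.3% of the Jchain, 98.9% of the Igha and 85.3% of the Igkc UMIs of naïve B cells, and the 1 cell at 24 h held 99.9%, 99.6% and 89.7%. Igkc therefore stood at 48093 CPM in naïve B cells, 50104 CPM at 24 h and 6958 CPM at 72 h, while the median B cell had 14, 13.5 and 16.5 Igkc UMIs. Jchain was at 8280, 8936 and 122 CPM and Igha at 11718, 8604 and 331 CPM. Outside clusters 3 and 6, Igha was at 147, 33.7 and 493 CPM, the level at 24 h being that of 1 UMI. The ratio of the plasma cell list at 72 h to naïve, 0.05 (0.04 to 0.06) over all members, was 1.41 (1.12 to 1.75) outside clusters 3 and 6. Immunoglobulin genes made up 6.83%, 6.27% and 1.27% of the UMIs of all members and 1.33%, 0.978% and 1.27% of those without the 7 cells.

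Across all B cells IgM was the most widely detected heavy chain. Ighm had a UMI in 85.7%, 86.1% and 81.8% of the B cells and Ighd in 66.2% and 55.6% of those of the naïve library and of 24 h and in 22 of 44 at 72 h. In cells with at least 5 light chain UMIs (221, 31 and 41 cells), the median share of kappa was 76.9%, 85.7% and 73.9%. Over 90% of the light chain UMIs were kappa in 41, 8 and 4 cells, and under 10% in 9, 0 and 2 cells. The 3 lambda constant genes Iglc1, Iglc2 and Iglc3 are near copies whose reads may be split, so their separate levels are uncertain. Ighd was lower at 24 h, at 344 CPM (234 to 488) against 625 CPM (558 to 699), and outside clusters 3 and 6 stood at 606 against 704 CPM.

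The comparison of gene levels between libraries covered 1300 genes at 24 h and 1333 at 72 h, those with at least 100 CPM in 1 of the libraries compared and 20 UMIs in both together. Both comparisons use the same naïve B cells. A gene under 100 CPM in 1 of the libraries compared was tested only through the library where it was higher. For such a gene, being tested and being past 2-fold are not independent. Among the genes below this held for Isg15, Fcgr2b, Tpi1, Ccl4 and Nfkb2, called higher, and for Cd69 and Cxcr4, called lower. At 24 h 123 genes (9.46%) were at least 2-fold higher than in naïve B cells and 49 (3.77%) at least 2-fold lower. At 72 h 81 genes (6.08%) were at least 2-fold higher and 31 (2.33%) lower. The median ratio over all genes tested was 1.04 at 24 h and 1.11 at 72 h, a shift of 0.15 on the log2 scale at 72 h against which the ratios there should be read. Of the 123 genes higher at 24 h, 90 were at a lower level in the B cells than in the cells outside the rule of the same library, and 54 were at least 2-fold higher in T cells too. At 72 h 24 of 81 were below the cells outside the rule and 17 were at least 2-fold higher in T cells too. None of the 7 tested genes of the follicular list at 24 h or the 8 at 72 h was 2-fold higher or lower, with median ratios of 0.89 and 0.90.

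**Figure D4:**
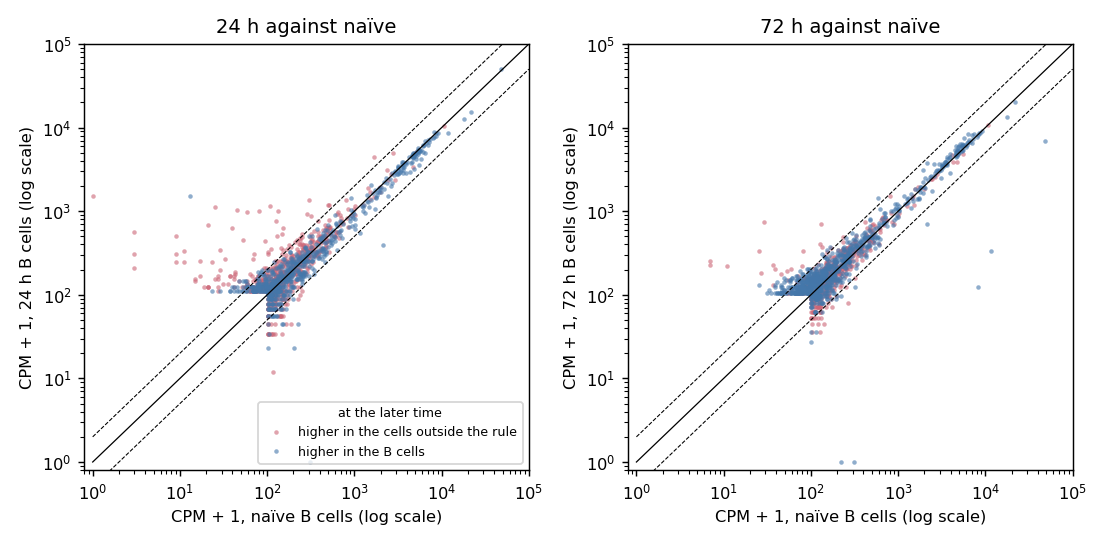
Each point is 1 tested gene, with CPM plus 1 in naïve B cells on the x axis and in B cells at 24 h (left) or 72 h (right) on the y axis, both on log scales, a line of equality and dashed lines at 2-fold. Genes well above the upper dashed line at 24 h are mostly of the colour that marks a higher level outside the B cells, and the points far below the lower dashed line at 72 h include Igkc, Igha and Jchain, with 48093, 11718 and 8280 CPM in naïve B cells.

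Genes of Mφs and monocytes had the highest ratios to naïve at 24 h, and those named here were higher in T cells as well. Spp1, which encodes the matrix protein osteopontin, had 0 UMIs in naïve B cells, 138 at 24 h (1530 CPM) and 0 at 72 h. At 24 h its level was at least 254-fold higher, with 3 counts taken as the floor of the naïve sum, and 114 of its 138 UMIs lay in 1 cell. Pf4, a chemokine of platelets and Mφs, had 6, 138 and 3 UMIs, with 77 in 1 cell at 24 h. The chemokine gene Ccl6 was spread more widely, at 24.1, 1120 and 331 CPM and in 77.8% of B cells at 24 h, against 9, 891 and 227 CPM in T cells and 898, 7544 and 2557 CPM in the cells outside the rule. Lyz2, limited by the rule, was at 131, 1009 and 705 CPM in B cells and at 75.4, 1019 and 771 CPM in T cells. The neutrophil genes S100a8 and S100a9 had 3 and 5 UMIs in naïve B cells and 26 and 25 UMIs at 72 h.

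The whole monocyte and Mφ list was higher too. Its 10 measured genes summed to 2471 CPM in naïve B cells, 3958 CPM at 24 h and 2900 CPM at 72 h, against 386, 3223 and 2828 CPM in T cells. Outside clusters 3 and 6 it was at 929, 2123 and 2997 CPM. Per B cell its share of UMIs ranged from 0 to 6.23% in the naïve library, 0 to 1.82% at 24 h and 0.0733 to 0.606% at 72 h, with medians of 0.0577%, 0.243% and 0.265%. At least 1 UMI of the list was present in 66.2%, 97.2% and 100% of B cells and in 55.4%, 97.3% and 100% of T cells. None of its genes was at 0 in the 24 h B cells, and Fcgr1 and Chil3 were at 0 at 72 h. The neutrophil list stood at 16.1, 277 and 470 CPM, with Cxcr2 at 0 in all 3 libraries. The T cell list stood at 155, 144 and 261 CPM, the natural killer and innate lymphoid list at 101, 122 and 122 CPM, and the dendritic cell list at 42.2, 111 and 52.3 CPM. Stromal, muscle and mast cell genes had no UMI, and epithelial and red blood cell genes at most 4 UMIs per library. Cluster 3 held 19 of the 36 B cells at 24 h, 15 of 44 at 72 h and 8 of 231 naïve, and the 3 members at 24 h with only 2 UMIs of the B cell genes held 35.0% of the list's UMIs there. Few cells of cluster 3 had a high share of the list. The highest were 6.23%, 3.34% and 2.80% in naïve cells and 1.82% in a cell at 24 h, and the next was 0.762%. Leaving out cluster 3 therefore also left out cells with a low share. The part of RNA from other cells in the differences between libraries was not tested.

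Interferon-stimulated genes were higher in B cells at 24 h, and by more in T cells and in the cells outside the rule. The 24 genes of the list summed to 3321 CPM in naïve B cells, 5034 CPM at 24 h (ratio 1.52, 1.36 to 1.68) and 2935 CPM at 72 h (0.88, 0.78 to 0.99). In T cells the sums were 2166, 7933 and 3695 CPM and outside the rule 2811, 11132 and 3197 CPM. Of the 7 genes tested at 24 h 3 were at least 2-fold higher, against 9.46% of all genes tested. None was lower, and the median ratio was 1.70. At 72 h none of 7 passed 2-fold, with a median of 0.97. Ifi27l2a, an interferon-inducible gene, was at 304 CPM (257 to 356), 1375 CPM (1144 to 1639) and 340 CPM (242 to 464), with a UMI in 34.2%, 69.4% and 34.1% of B cells. Bst2, which encodes the tetherin that retains virions at the cell surface, was at 111, 355 and 61.0 CPM. Isg15, a ubiquitin-like modifier, had 7, 13 and 1 UMIs, of which 9 of the 13 at 24 h lay in 1 cell. At 14.1 CPM in naïve B cells, Isg15 was tested only through its 24 h level. Ly6e, the most abundant gene of the list in B cells, was at 1948, 1829 and 1672 CPM, a ratio of 0.94 (0.79 to 1.11) at 24 h. Outside clusters 3 and 6 the ratio of the list at 24 h was 1.23 (1.02 to 1.48) and that of Ifi27l2a 3.81.

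The promoters of these genes are shown because the list is defined by its response to interferon. RefSeq promoters (GRCm38.p6, from 250 bases before to 50 after the start of a gene) were matched for 17 of the 24 genes and searched on both strands for GAAANNGAAA, a short form of the interferon-stimulated response element in which N is any base. The motif occurred in 9 of the 17 genes (52.9%) and in 1079 of 27025 genes with a promoter (3.99%). Ifi27l2a and Ly6e, both tested at 24 h, were not among the 17 matched genes, so their promoters were not searched. Windows of 60 bases around the match are given for the 3 genes with the motif among the 7 tested at 24 h. They are written 5′ to 3′ on the strand of the gene with matches in capitals, where overlapping matches run into 1 stretch.
Bst2, chr8:71537568-71537627, minus strand: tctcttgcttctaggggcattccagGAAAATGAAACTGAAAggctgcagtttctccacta
Isg15, chr4:156200862-156200921, minus strand: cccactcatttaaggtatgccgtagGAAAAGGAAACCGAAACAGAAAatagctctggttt
Ifi203, chr1:173942493-173942552, minus strand: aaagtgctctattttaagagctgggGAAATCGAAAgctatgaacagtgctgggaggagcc
Bst2 held 2 overlapping matches and Isg15 held 3, while Ifi203, whose level was 157, 266 and 113 CPM, held 1. Between the match and the start lay 120 bases in Bst2, 68 in Isg15 and 25 in Ifi203. A match describes letters in the window and not a site in use.

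Genes of MHC class II were lower in the summed B cells at 24 h. The 11 genes summed to 39674 CPM in naïve B cells, 27131 CPM at 24 h (ratio 0.68, 0.66 to 0.71) and 36454 CPM at 72 h (0.92, 0.89 to 0.95). All 11 had a ratio under 1 at 24 h, from 0.52 for H2-DMb1 to 0.79 for H2-Ob, and none was 2-fold lower, with median ratios of 0.66 at 24 h and 0.87 at 72 h. The invariant chain gene Cd74 was at 21898, 15278 and 20221 CPM, and the class II alpha chain gene H2-Aa at 5494, 3537 and 4772 CPM. Outside clusters 3 and 6 the list stood at 42114, 38644 and 38836 CPM, a ratio of 0.92 (0.86 to 0.97) at 24 h. In T cells, which express little class II in mice, the list was at 496, 6281 and 1978 CPM. MHC class I genes were at 5798, 6431 and 5931 CPM in B cells.

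**Figure D5:**
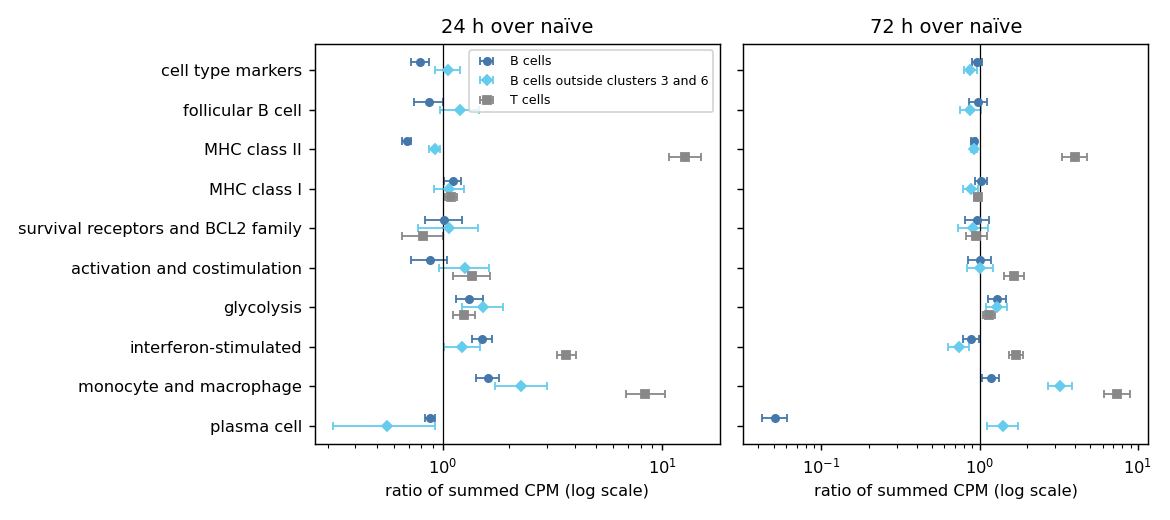
Points are ratios of the summed CPM of a gene list at 24 h (left) or 72 h (right) to the naïve library, on a log axis with exact intervals, in all B cells, in B cells outside clusters 3 and 6 and in T cells where the list is not a B cell list. At 24 h the cell type marker list lies at 0.79 in all B cells and 1.05 outside clusters 3 and 6, and the follicular list at 0.87 and 1.19. At 72 h they lie at 0.96 and 0.98 in all B cells. The class II list lies at 0.68 in B cells and 12.7 in T cells at 24 h. The plasma cell list lies at 0.05 at 72 h in all B cells and at 1.41 outside clusters 3 and 6.

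Cd69 was lower in B cells at 24 h. This early activation antigen, which retains lymphocytes in tissue, had 101 UMIs in naïve B cells (203 CPM, 165 to 247), 2 at 24 h (22.2 CPM, 2.69 to 80.1) and 17 at 72 h (148 CPM, 86.2 to 237). A Cd69 UMI was present in 27.3%, 5.56% and 27.3% of B cells. The ratio at 24 h was 0.11 (0.01 to 0.40) in all members, and T cells held 128, 165 and 183 CPM. Outside clusters 3 and 6 the ratio was 0.17, from no more than the 2 UMIs of that library, under the floor of 3. Cxcr4, the receptor for the retention chemokine CXCL12, was at 165, 66.5 and 200 CPM, and Gpr183, an oxysterol receptor that positions B cells, at 94.5, 11.1 and 78.4 CPM, under the level tested. Of the 2 trafficking genes tested at 24 h, Cxcr4 was at least 2-fold lower and S1pr1, the receptor for exit from lymphoid tissue, stood at 111, 55.4 and 95.8 CPM with a ratio of 0.50 (0.16 to 1.24). None of 4 passed 2-fold at 72 h. The share at least 2-fold lower among all genes tested at 24 h was 3.77%. The sum of the 16 trafficking genes had a ratio of 0.78 (0.60 to 1.003) at 24 h, with an interval that included 1. Hhex, a homeobox factor, was at 165, 44.3 and 157 CPM. Bank1, a scaffold of B cell receptor signalling, was at 462, 244 and 383 CPM, with ratios of 0.53 (0.32 to 0.82) and 0.83 (0.59 to 1.15). Across the 13 tested genes of the B cell receptor signalling list 1 was at least 2-fold higher and none lower at each time, with median ratios of 0.80 and 0.93. That count is near the share of all genes tested that were higher, 9.46% at 24 h and 6.08% at 72 h. The 1 gene was Fcgr2b, the inhibitory Fc receptor of B cells, at 58.3, 133 and 200 CPM, which stood at 209, 363 and 564 CPM outside the rule.

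Of the activation genes tested at 72 h Nfkb2 alone was at least 2-fold higher. It encodes the precursor of the non-canonical NF-κB subunit and had 24 UMIs in naïve B cells, 1 at 24 h and 18 at 72 h, or 48.2, 11.1 and 157 CPM, and was found in 29.5% of B cells at 72 h against 8.23% of naïve ones. The ratio at 72 h was 3.25 (1.66 to 6.24), and T cells held 20.3, 18.4 and 65.4 CPM. The list had 6 genes tested at each time, with median ratios of 1.28 at 24 h and 1.05 at 72 h. At 24 h Bcl2a1b, a survival gene of the BCL2 family, was at least 2-fold higher and Cd69 lower. Among all genes tested 9.46% were at least 2-fold higher and 3.77% lower at 24 h, and 6.08% were higher at 72 h. Cd83, which stabilises class II at the surface, was at 428, 266 and 279 CPM, and Cd80 had no UMI. Cd55, a complement regulator of the follicular list, was at 141, 88.7 and 279 CPM, a ratio of 1.98 (1.26 to 3.05) at 72 h. H2afz, a histone variant, was at 235, 477 and 496 CPM. Rpl9 and Rpl13a, at 591 and 2163 CPM in naïve B cells and 1428 and 3806 CPM at 72 h, share sequence with processed copies (Rpl13a-ps1 was also 2.27-fold higher), so their levels are uncertain.

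The summed level of the glycolysis genes was higher at both times, while the share of its genes past 2-fold was near that of all genes tested. The 11 genes summed to 2034 CPM in naïve B cells, 2694 CPM at 24 h (ratio 1.32, 1.15 to 1.52) and 2639 CPM at 72 h (1.30, 1.14 to 1.48). Of the tested genes 1 of 8 was at least 2-fold higher at 24 h, Tpi1, against 9.46% of all genes, and none of 7 at 72 h, against 6.08%, with median ratios of 1.31 and 1.29. T cells held 3140, 3930 and 3603 CPM. Npm1, a nucleolar protein gene of growing cells, was at 909, 1452 and 1210 CPM. Within the members these genes were uneven, and cluster 4 held Npm1 at 2946 CPM and Ldha at 1027 CPM against 801 and 197 CPM in cluster 1, with a Myc UMI in 7 of its 20 cells.

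None of the 6 tested survival genes passed 2-fold at either time. Among cytokine genes, Ltb, which encodes lymphotoxin beta for the organisation of lymphoid tissue, was at 609, 721 and 679 CPM, and Tgfb1 at 239, 288 and 340 CPM. Il10 had 0, 1 and 0 UMIs and Il6 had 0, 0 and 1, so that neither could be compared at this depth. Of the 4 cytokine genes tested at 24 h, Ccl4 was at least 2-fold higher (62.3 to 177 CPM), against 9.46% of all genes. Of the 3 tested at 72 h, Ccl3, a chemokine of myeloid cells, was at least 2-fold lower, against 2.33% of all genes. Ccl3 had 59 UMIs in naïve B cells, 46 of them in 1 cell, and 6 at each later time. The 9 survival genes summed to 1359, 1375 and 1315 CPM, with ratios of 1.01 (0.83 to 1.23) and 0.97 (0.81 to 1.16). Apoe, an abundant Mφ transcript, was at 1980, 1707 and 1820 CPM in B cells, 162, 569 and 1364 CPM in T cells and 11044, 4088 and 15517 CPM outside the rule. In naïve B cells a single cell held 238 of the 985 Apoe UMIs, and outside clusters 3 and 6 Apoe was at 810, 809 and 2011 CPM.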

How the data were processed

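CD45+ cells of 3 libraries (naïve, 24 h and 72 h after IM) were measured by 10x 3' single-cell RNA-seq. Per the labels and the submitters' processing notes, the authors used Cell Ranger 3.0.2 with GRCm38/mm10 and Seurat, and deposited raw UMI counts per gene and cell, which they had filtered on genes and mitochondrial share (lowest 261 genes, highest 9.91% in these cells). The tables held 14148 genes, with 1865221, 10542346 and 5246731 UMIs. The members and gene lists were chosen with earlier results of these data known.

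UMIs of the members were summed per library, divided by their total and compared as CPM. With 1 library per group no test was possible. Intervals are exact, at 95%. The 2-fold count used genes with at least 100 CPM in 1 library and 20 UMIs in both. The ratio intervals were tested on simulated independent Poisson counts. Such counts do not hold the clumping of UMIs in single cells, so that test says nothing about it. Members were clustered with scanpy 1.11.5 (2000 variable genes without immunoglobulin and rule genes, 15 components, 15 neighbours, Leiden resolution 0.5), and a cluster was called X-like from at least 3 detected list genes. No doublet caller was run; members in the top 5% of UMIs were left out in an alternative. Named genes were all list genes, the 12 with the highest lower bound and the 12 with the lowest upper bound of the ratio at each time (again among genes at or above their level in the cells outside the rule; immunoglobulin V segments left out), the 20 furthest above T cells and the 5 leading each cluster. Python 3.11.15, numpy 2.4.6, scipy 1.17.1 and pandas 2.3.3 were used.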

Additional observations from a re-analysis of the deposited data

Results flagged for a closer look

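The MHC class II list differed in direction between B and T cells. At 24 h its ratio to naïve was 0.68 in B cells and 12.7 in T cells, and at 72 h it was 0.92 in B cells and 3.99 in T cells. The interferon-stimulated list at 72 h was at 0.88 of naïve in B cells and 1.71 in T cells. The cytokine list at 24 h was at 1.23 in B cells and 0.79 in T cells, with Ccl4 at 62.3 and 177 CPM in B cells and 1290 and 422 CPM in T cells. The cytokine ratio of B cells outside clusters 3 and 6 was 0.97 (0.65 to 1.41), an interval that included 1. The T cell list, whose Cd3 genes both selection rules used, was at 1.69 of naïve in B cells at 72 h and 0.69 in T cells, and at 0.74 in B cells outside clusters 3 and 6. Over all B cells the counting intervals of the ratios lay on opposite sides of 1. The difference between the cell types was not tested, since each group was 1 library.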

How the results depend on the processing

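No paired analysis was possible because each group was 1 library. The alternatives that leave out clusters 3 and 6 or the 7 Jchain-high cells were chosen after seeing the data, and some settings gave no value where fewer than 3 UMIs would be expected.

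The share of B cells was 2.31% at 24 h with 1 UMI of the B cell genes and 2.35% with a Lyz2 limit of 1%. With no Lyz2 UMI allowed it was 30.2%, 0.271% and 0.484% in the naïve, 24 h and 72 h libraries. Thinned cells with 2 germinal centre UMIs made up 4.55% of naïve B cells and 0% at 24 h.

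The interferon ratio at 24 h was 1.34 as a mean over cells, 1.24 with 3 UMIs of the B cell genes, 1.29 with no Lyz2 UMI and 1.23 outside clusters 3 and 6. The class II ratio at 24 h was 0.85 as a mean over cells, 0.78 without the top 5% of UMIs, 0.76 with 3 UMIs, 0.93 with no Lyz2 UMI and 0.92 outside clusters 3 and 6. At 72 h it was 0.95 as a mean over cells, 0.97 both without the top 5% and with 3 UMIs, 0.88 without immunoglobulin, ribosomal and mitochondrial genes and 0.83 without Jchain-high cells, and it reversed to 1.31 with no Lyz2 UMI. The monocyte and Mφ ratio at 24 h was 1.94 as a mean over cells, 3.08 without the top 5%, 1.16 with 3 UMIs, 2.29 outside clusters 3 and 6 and 1.84 without Jchain-high cells, and it reversed to 0.84 with no Lyz2 UMI, which left 6 B cells. The plasma cell ratio at 72 h was 0.13 as a mean over cells, 0.69 without the top 5% and 0.0994 with no Lyz2 UMI, and it reversed to 1.41 outside clusters 3 and 6 and 1.16 without Jchain-high cells.

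Genes at least 2-fold higher at 24 h numbered 223 at 50 CPM, 53 at 200 CPM and 272 outside clusters 3 and 6. Those lower numbered 229, 8 and 129, and 75 as a mean over cells. At 72 h those higher numbered 204, 23 and 125 and those lower 151, 11 and 69. The counts outside clusters 3 and 6 also rest on the genes that reach the minimum levels in those cells. Among the genes tested over all B cells, 148 at 24 h and 96 at 72 h were higher there, of which 82 and 62 were higher in both.

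With no Lyz2 UMI, Bst2 and Pf4 had a ratio of 0 at 24 h and Iglc1 of 2.23. Outside clusters 3 and 6 the 24 h ratio of Derl3 was 0, of Dnajc3 0.79 and of Iglc1 1.03, and at 72 h that of Igha was 3.35, of Jchain 1.19, of Txndc5 1.44 and of Zcwpw1 0. Without Jchain-high cells Derl3 was at 0 and Iglc1 at 1.16 at 24 h, and at 72 h Igha was at 2.25, Iglc1 at 1.90, Txndc5 at 1.10 and Xbp1 at 1.26. Without the top 5% Iglc1 was at 1.22 at 24 h and at 72 h Iglc1 was at 1.71, Txndc5 at 1.02 and Xbp1 at 1.33. The cause was not tested beyond the cells each setting leaves out.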
